A study of Mus musculus with 26 samples.

Results

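The genes described here are 10 liver genes of gluconeogenesis and the fasting response, chosen by name: Pck1, G6pc, Fbp1, Pcx, Ppargc1a, Tat, Igfbp1, Irs2, Foxo1 and Sik1. Each was found in 1 row of a combined count table of 54532 genes, and all 10 passed the filter on low counts that left 14415 genes to test. The samples are 26 livers of C57BL/6 mice that received benoxacor, a safener added to herbicide products to protect the crop, by mouth at 0, 0.5, 5 or 50 mg/kg on each of 3 days. Livers were collected 24 hours after the third dose. The 0 mg/kg group had 5 mice, the 0.5 mg/kg group 5, the 5 mg/kg group 8 and the 50 mg/kg group 8. Every library is a separate mouse, called here by its number within its dose. Mouse numbers fall into a first run starting at 601 (15 mice, of which 4, 3, 4 and 4 at the rising doses) and a second run starting at 619 (11 mice, of which 1, 2, 4 and 4). The labels give neither what separates the runs nor the sex, feeding state or hour of collection of the mice, and a single control mouse stands for the second run in every comparison with 0 mg/kg. Within each run the numbers rise with dose, so dose and the order of numbers cannot be told apart.

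Gluconeogenesis makes glucose from lactate, glycerol and amino acids, and in fasting the liver releases that glucose to the blood. Glucagon, through cAMP, and glucocorticoids raise transcription of its rate-setting genes, while insulin, acting through AKT, keeps the factor FOXO1 out of the nucleus and lowers the same genes. Levels of these genes therefore move over hours with meals, and several also follow the daily clock.

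Each library held between 5433074 and 9088626 counted reads, with a median of 7105531. Levels are given as CPM, a count scaled to library size, after TMM scaling, which corrects for differences in library composition. The 9 hepatocyte markers with a row summed to between 48592 and 137227 CPM in every library, led by Alb. Some libraries stood apart in genes outside the set. At 0.5 mg/kg, mice 1 and 2 had 2311 and 3233 CPM of Saa1, an acute phase gene, against at most 655 CPM in the other 24 mice. At 5 mg/kg, mouse 8 had 911 CPM of Star, a gene of steroid-producing cells, against at most 6.11 CPM in the other 25, and its Cyp11a1, a defining gene of those cells, was 473 CPM against 0 in all of the others. In bulk liver, fewer cells of a type and less RNA per cell cannot be told apart.

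Compared per kilobase of exon, the enzymes were the abundant members and the regulators the scarce ones. Fbp1, the fructose-bisphosphatase of the pathway, averaged 311 ± 86.4 CPM per kb (SD, n = 26). Pck1, the cytosolic PEP carboxykinase that commits oxaloacetate to glucose, averaged 270.4 ± 171 CPM per kb, and Tat, which breaks down tyrosine, 261 ± 89.7. These 3 genes were not separated: Fbp1 exceeded Pck1 in 17 of 26 mice and Pck1 exceeded Tat in 9 of 26. G6pc, the glucose-6-phosphatase that frees glucose for release, averaged 138 ± 69.9 CPM per kb, and Pcx, the mitochondrial pyruvate carboxylase that opens the pathway, 79.4 ± 16.2. Igfbp1, a secreted binding protein for insulin-like growth factors whose gene insulin represses, followed at 19.4 ± 17.7 CPM per kb and lay below Pcx in 26 of 26 mice. The lowest levels were those of Sik1, a cAMP-induced kinase that restrains the CREB coactivators (5.52 ± 3.86 CPM per kb), Foxo1 (3.35 ± 0.587), Irs2, the insulin receptor substrate (2.76 ± 1.66), and Ppargc1a, the coactivator PGC-1alpha (1.67 ± 0.438). Neighbours among these last 4 overlapped, with the higher above the lower in 19, 19 and 16 of 26 mice.

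Mice given the same dose differed far more in some of these genes than in most of the genome. A fit with separate, additive terms for dose and run was taken out of log2 CPM, and the SD of what remained was 1.48 for Igfbp1. That was larger than the SD of 99.8% of the 14415 tested genes, whose median SD was 0.338. A dose difference that itself differs between the runs stays in this SD. Pck1 had an SD of 0.930, Irs2 of 0.917 and G6pc of 0.910, each larger than that of about 98% of tested genes (98.24%, 98.10% and 98.02%). Sik1 followed at 0.742 and Tat at 0.552. At the other end, Fbp1 (0.440), Ppargc1a (0.410), Pcx (0.333) and Foxo1 (0.268) varied about as much as an ordinary liver gene. Over the 26 mice the highest level exceeded the lowest 84.2-fold in Igfbp1, 11.6-fold in Pck1 and in G6pc, and 10.4-fold in Irs2 and in Sik1, but 1.92-fold in Foxo1. Igfbp1 ran from 8 to 697 reads in a library, Irs2 from 27 to 278 and Pck1 from 1405 to 18273, so counting error was small against the spread except at the lowest Igfbp1 values.

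The 4 members of largest spread between mice are shown by the bases ahead of their transcription starts, because these stretches hold short elements associated with insulin and cAMP control. On mm10 with GENCODE M21, Pck1 spans chr2:173153048-173159273, G6pc chr11:101367561-101377903, Igfbp1 chr11:7197782-7202546 and Irs2 chr8:10984681-11008458. Sequences come from RefSeq on GRCm38.p6, which listed a start for 9 of the 10 members; Sik1 was not matched. Each was searched in the 250 bases before the start and is printed up to the first base that a GENCODE M21 exon covers. Capitals mark CAAAACA, the core of the insulin response element, TGACGT, a part of the cAMP response element, and CACGTG, the E-box; TGTTTTG and ACGTCA are the first pair read on the opposite strand. Pck1 is at chr2:173152823-173153047 (plus strand), G6pc at chr11:101367466-101367560 (plus), Igfbp1 at chr11:7197537-7197781 (plus) and Irs2 at chr8:11008930-11009179 (minus).
Pck1: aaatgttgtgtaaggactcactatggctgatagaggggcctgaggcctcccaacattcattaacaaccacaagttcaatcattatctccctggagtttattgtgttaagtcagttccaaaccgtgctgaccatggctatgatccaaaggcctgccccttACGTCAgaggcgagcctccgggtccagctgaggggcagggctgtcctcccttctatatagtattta
G6pc: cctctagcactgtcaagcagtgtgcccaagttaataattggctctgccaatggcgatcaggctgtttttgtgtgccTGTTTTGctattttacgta
Igfbp1: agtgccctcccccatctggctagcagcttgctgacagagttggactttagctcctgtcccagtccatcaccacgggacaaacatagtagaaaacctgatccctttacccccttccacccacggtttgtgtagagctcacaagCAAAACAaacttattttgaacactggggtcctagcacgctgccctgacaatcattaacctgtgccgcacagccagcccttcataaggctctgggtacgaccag
Irs2: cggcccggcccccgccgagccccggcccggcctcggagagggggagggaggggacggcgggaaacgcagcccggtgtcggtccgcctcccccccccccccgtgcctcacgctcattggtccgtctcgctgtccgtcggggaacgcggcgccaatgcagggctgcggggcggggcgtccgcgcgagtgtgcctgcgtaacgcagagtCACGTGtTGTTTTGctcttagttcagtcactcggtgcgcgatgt
CAAAACA was found on either strand in 3 of the 10 member windows (Pcx has 2 starts), those of G6pc, Igfbp1 and Irs2, and in 5.56% of all 32851 windows of the same length. In Igfbp1 it lay 108 to 102 bases before the start, in G6pc 174 to 168 and in Irs2 37 to 31. These distances are counted from the RefSeq start, which can differ from the GENCODE start. In G6pc 155 of the 250 bases were not printed, from the first base of a GENCODE exon on. The Irs2 window stops at 11008930, ahead of the GENCODE start at 11008458. TGACGT was found in Pck1, 91 to 86 bases before the start, and in Ppargc1a, 50 to 45 bases before it, and in 6.47% of all windows. The E-box was found in Irs2, 44 to 39 bases before the start, and in Pcx, 248 to 243 bases before it, and in 6.02% of all windows. GTAAACA and CAAAACA were both searched as FOXO elements. GTAAACA (3.17% of all windows) was in none of the 10 windows, while CAAAACA was in the 3 named above. The whole cAMP response element TGACGTCA (1.55%), which contains TGACGT, was in none of the 10 windows. Neither were the glucocorticoid receptor core AGAACA (16.1%) and the D-box TTATGTAA (0.819%). In Irs2 the E-box and CAAAACA did not overlap.

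The comparisons with 0 mg/kg ask whether benoxacor shifted these genes at each dose. No member passed an adjusted p of 0.05 at any dose in edgeR's quasi-likelihood test, with terms for dose and run and Benjamini-Hochberg adjustment over all tested genes, and none did in DESeq2 or limma-voom. Few genes did at all: the share of all tested genes called was 0.00694% at 50 mg/kg (1 gene, Zbtb16), 0.0% at 5 mg/kg and 0.0% at 0.5 mg/kg. At an unadjusted p under 0.05, members called were 0 of 10 at 50 mg/kg, 1 of 10 (Sik1) at 5 mg/kg and 0 of 10 at 0.5 mg/kg, beside 5.11%, 6.18% and 6.99% of all tested genes in edgeR. At 5 mg/kg DESeq2 gave an unadjusted p under 0.05 to 2 of 10, Igfbp1 and Sik1, beside 6.78% of all tested genes, and limma-voom to 0 of 10. Testing for any difference among the 4 doses in edgeR gave 0 of 10 members adjusted and 0 of 10 unadjusted, beside 0.00694% and 5.7% of all tested genes. For that test DESeq2 gave an unadjusted p under 0.05 to 1 of 10, Sik1, beside 7.17%, and limma-voom to 0 of 10. Over whole dose groups 0 of 10 members separated from 0 mg/kg without overlap, in either direction, at any dose. Few tested genes did: 0.645% lay wholly above and 0.756% wholly below for the lowest dose, 0.0832% and 0.139% for the middle one and 0.118% and 0.0486% for the highest.

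**Figure D1:**
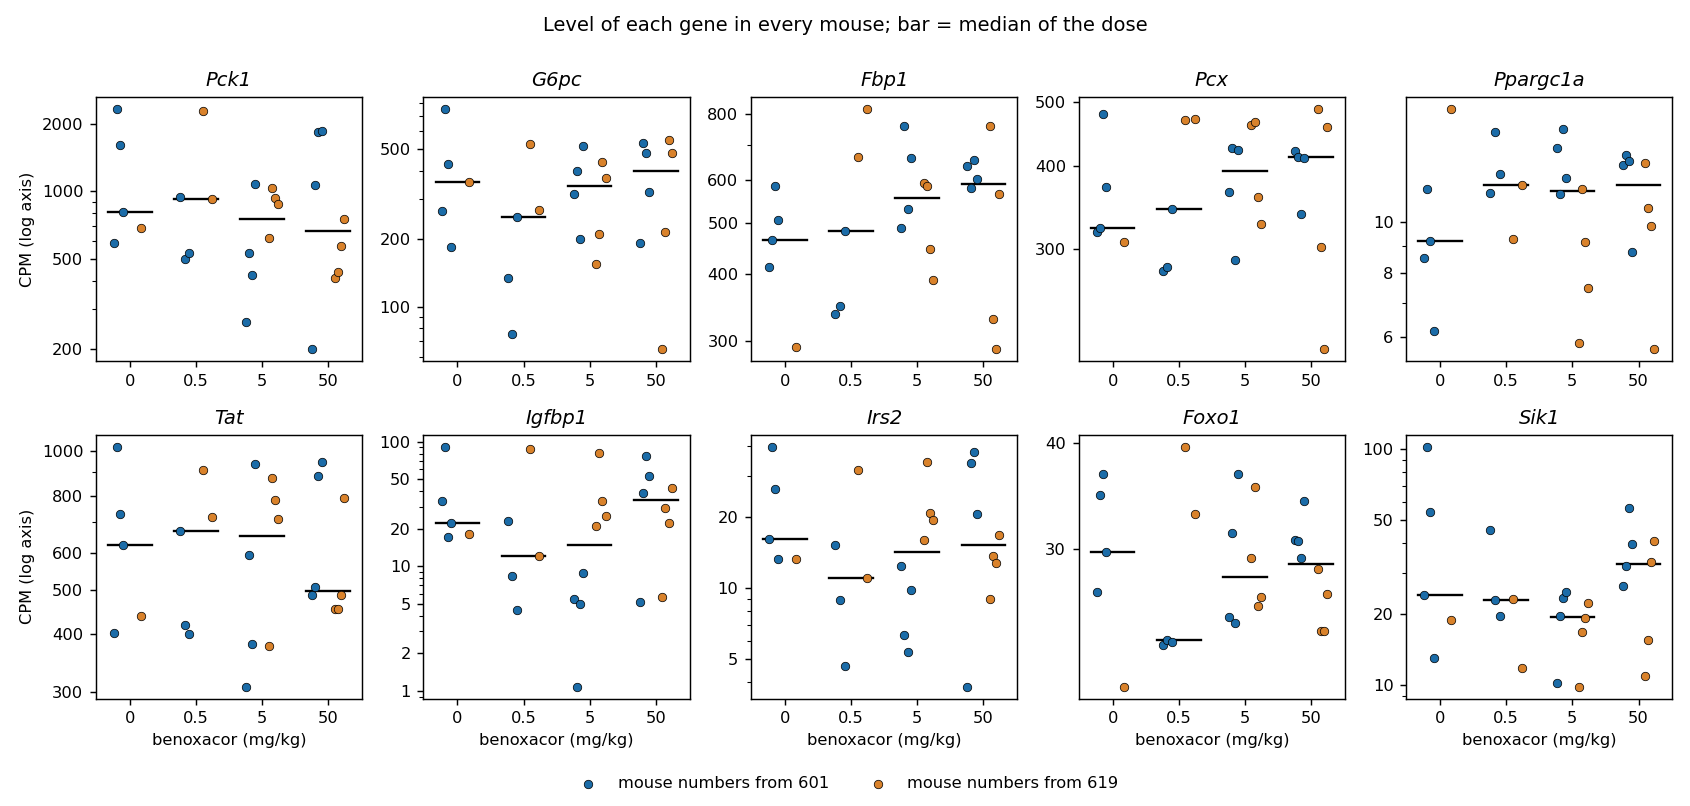
CPM of each of the 10 genes (log axis) in each of the 26 mice, by benoxacor dose in mg/kg; blue points are mice numbered from 601, orange points mice numbered from 619, and the bar is the median of the dose. The dose groups overlap in every panel, and the spread within a dose is widest for Igfbp1, from 1.08 to 80.3 CPM at 5 mg/kg.

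Among the enzymes of the pathway, Pck1 stood at 589.9, 2316, 1610.3 and 814 CPM in the 0 mg/kg mice of the first run and at 688 in the control of the second run. At 0.5 mg/kg it was 944, 502 and 535 in the first run and 2264 and 921 in the second. At 5 mg/kg the lowest, median and highest were 263, 751 and 1083 CPM, and at 50 mg/kg 199.5, 664 and 1857. The lowest and highest mice of all doses overlapped, and 1 mouse at 0 mg/kg and 1 at 0.5 mg/kg exceeded every mouse at 5 and 50 mg/kg. The log2 fold change of Pck1 against 0 mg/kg was -0.21 at 0.5 mg/kg (95% confidence interval -1.40 to 0.99), -0.73 at 5 mg/kg (-1.80 to 0.35) and -0.42 at 50 mg/kg (-1.44 to 0.59). All 3 intervals contain both no difference and a halving of the level.

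G6pc stood at 266, 749, 427 and 183 CPM in the first-run controls and 356 in the second-run control. At 0.5 mg/kg it was 134, 75.7 and 251 in the first run and 528 and 267 in the second, and the pair of lowest values belonged to the mice of high Saa1. Its medians were 344 CPM at 5 mg/kg (range 155 to 512) and 401 at 50 mg/kg (range 64.8 to 548). The log2 fold change was -0.70 at 0.5 mg/kg (SE 0.53, adjusted p = 0.849 in edgeR), and -0.12 (SE 0.57) without the mice of high Saa1. The estimates at 5 and 50 mg/kg were -0.31 (SE 0.46) and -0.19 (SE 0.46). The level of G6pc at 0.5 mg/kg thus rested on the same mice as the Saa1 values, and whether one followed from the other was not tested.

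Fbp1 and Pcx were the steady enzymes. Fbp1 averaged 452 ± 109 CPM (SD over 5 mice) without benoxacor, then 529.7 ± 208 (5 mice), 557 ± 119 (8 mice) and 553 ± 161 (8 mice) with rising dose. Its log2 fold changes were 0.27, 0.34 and 0.32 at the rising doses, each with an interval across 0, the last from -0.17 to 0.82. Pcx averaged 360.3 ± 71.5, 369.5 ± 96.5, 389.9 ± 64.5 and 381 ± 90.7 CPM at the rising doses. The interval of its difference at 50 mg/kg, -0.33 to 0.44, leaves out a doubling or a halving. Tat, a glucocorticoid target in textbook accounts, averaged 644 ± 251, 624 ± 215, 621 ± 243 and 626 ± 210.1 CPM, with log2 fold changes of -0.064, -0.073 and -0.056.

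Of the regulators, Foxo1 had the tightest intervals, with a log2 fold change at 50 mg/kg of -0.049 (-0.37 to 0.27) and means of 29.7 ± 6.43, 28.5 ± 7.51, 29.3 ± 4.81 and 28.5 ± 3.52 CPM at the rising doses. In the first run all 3 mice at 0.5 mg/kg (23.2, 23.4 and 23.3 CPM) lay below the 4 controls (26.7 to 36.8), as did 5.92% of all tested genes. In the second run both 0.5 mg/kg mice (39.65 and 33.01) lay above the single control (20.7). Foxo1 shares exon bases with Gm20402, an antisense gene that averaged 3.31 CPM, and Irs2 with 9530052E02Rik on the other strand, which averaged 1.08 CPM. The strand setting of the counting is not given in the sources used here, so reads of these partners cannot be told apart from the members' own. Ppargc1a ranged from 5.69 to 16.6 CPM over all mice, the highest in the second-run control and the lowest in a 50 mg/kg mouse. Its log2 fold changes were 0.22, 0.086 and 0.11, again with every interval across 0.

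In edgeR, Sik1 was the single member with an unadjusted p under 0.05 against 0 mg/kg. It stood at 24.2, 103, 54.1 and 13.01 CPM in the first-run controls and 18.9 in the second-run control. At 0.5 mg/kg it was 45.5, 22.9 and 19.7 in the first run and 23.3 and 11.8 in the second. At 5 mg/kg it ranged from 9.88 to 24.9 with a median of 19.4, and at 50 mg/kg from 10.96 to 56.2 with a median of 32.6. The 5 mg/kg mice were a narrow low group: 2 of the 8, at 9.88 and 10.2 CPM, lay below every control, and the other 6 lay within the range of the controls. Sik1 had a log2 fold change of -0.99 at 5 mg/kg (SE 0.41, interval -1.84 to -0.13, unadjusted p = 0.0256, adjusted p = 0.780 in edgeR). Without mouse 2 of the controls, which had 103 CPM, the log2 fold change was -0.44 (SE 0.37, edgeR unadjusted p = 0.25). In the first run all 4 mice at 50 mg/kg (26.3 to 56.2 CPM) lay above all 4 at 5 mg/kg (10.2 to 24.9), as did 0.867% of all tested genes, while in the second run the same doses overlapped (10.96 to 40.8 against 9.88 to 22.4).

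Igfbp1 and Irs2, both genes that insulin lowers in the liver, had the widest intervals. Igfbp1 stood at 33.2, 91.1, 17.02 and 22.3 CPM in the first-run controls and 18.0 in the second-run control, and at 23.0, 8.35 and 4.44 (first run) and 86.4 and 12.1 (second run) at 0.5 mg/kg. Its lowest, median and highest values were 1.08, 14.9 and 80.3 CPM at 5 mg/kg and 5.11, 34.2 and 77.2 at 50 mg/kg. Each dose thus held a mouse near the top of the whole range, and each treated group also held mice near the bottom. The log2 fold change of Igfbp1 was -0.999 at 0.5 mg/kg (-2.95 to 0.96), -1.41 at 5 mg/kg (-3.28 to 0.46) and -0.31 at 50 mg/kg (-1.94 to 1.31), so at 50 mg/kg neither a doubling nor a halving lies outside the interval. Irs2 stood at 16.1, 39.8, 26.2 and 13.3 CPM in the first-run controls and 13.3 in the second-run control. At 0.5 mg/kg Irs2 was 15.3, 8.89 and 4.69 in the first run and 31.7 and 11.005 in the second. It ranged from 5.39 to 34.4 CPM at 5 mg/kg and from 3.83 to 37.9 at 50 mg/kg, with log2 fold changes of -0.74, -0.65 and -0.30 at the rising doses.

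**Figure D2:**
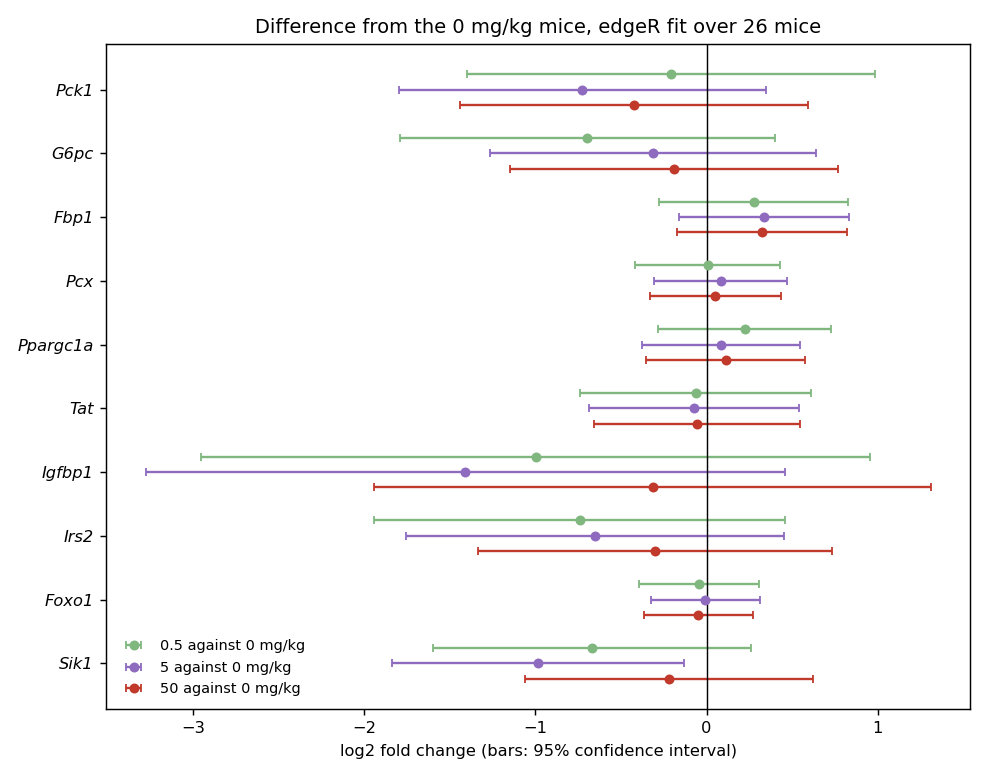
Log2 fold change of each gene against 0 mg/kg at 0.5 (green), 5 (purple) and 50 mg/kg (red) from the edgeR fit over 26 mice; points are estimates and bars 95% confidence intervals. All intervals cross 0 except that of Sik1 at 5 mg/kg (-1.84 to -0.13), and the bars of Igfbp1 are the widest.

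In each of the 3 comparisons 7 of the 10 members had a negative and 3 a positive log2 fold change, and the median of the 10 was -0.12 for the highest dose, -0.19 for the middle one and -0.14 for the lowest, beside 0.0054, 0.012 and 0.0049 over all tested genes. The 3 comparisons share the control mice, and 1 control weighed on all of them: mouse 2 at 0 mg/kg had the highest level of all 26 mice in 6 members, Pck1, G6pc, Tat, Igfbp1, Irs2 and Sik1. Without that mouse 1 of 10 members was negative at 50 mg/kg, 4 of 10 at 5 mg/kg and 5 of 10 at 0.5 mg/kg. The highest dose then gave 0.44 for Igfbp1, 0.33 for Sik1 and 0.17 for G6pc. The direction of the set at 50 mg/kg therefore turned on 1 control.

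The comparison of the runs asks whether the blocks of mouse numbers differ. At an adjusted p of 0.05 in edgeR, members called were 0 of 10 beside 0.0902% of all tested genes (13 genes), and at an unadjusted p under 0.05 they were 0 of 10 beside 7.98%. DESeq2 gave an unadjusted p under 0.05 to 2 of 10, Igfbp1 and Sik1, beside 8.58% of all tested genes, and limma-voom to 0 of 10. The median log2 fold change of the members was 0.012, beside 0.015 over all tested genes, and 5 of 10 were positive. The largest estimates were 1.001 for Igfbp1 (SE 0.65, unadjusted p = 0.139 in edgeR), which averaged 26.3 ± 27.9 CPM in the first run (n = 15) and 34.2 ± 26.2 in the second run (n = 11), and -0.58 for Sik1 (SE 0.30, unadjusted p = 0.0622 in edgeR), which averaged 34.3 ± 23.4 and 20.3 ± 9.54 CPM. Among the called genes were clock genes, although limma-voom called 1 gene in all between the runs. Arntl and Npas2, activators of the clock, rose by 1.296 and 3.46 on the log2 scale (adjusted p = 0.0490 and 0.0099 in edgeR). Arntl averaged 8.35 CPM in the first run and 18.4 in the second, and Npas2 0.289 and 2.93, so Npas2 was near the floor in the first run. Clock (0.37), Nfil3 (0.61) and Cry1 (0.076), listed in the same phase, were not called. Of 9 clock genes of the opposite phase 8 were lower, with a median of -0.65 and 0 called. An index of both clock lists, the mean standardised log2 level of the 5 genes of the phase of Arntl less that of the 9 of the opposite phase, ran from -2.27 to 1.17 in the first run and from -1.56 to 2.02 in the second. Its part in the members' levels between the runs was not tested.

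Each run has 4 mice at both 5 and 50 mg/kg. The medians of these doses stood in opposite order in the runs for 8 of 10 members, all but G6pc and Sik1, and for 46.4% of all tested genes. The 3 members with the largest difference between the runs, Igfbp1, Irs2 and Pck1, are given by mouse. Igfbp1 in the first run was 5.47, 1.08, 4.94 and 8.74 CPM at 5 mg/kg and 5.11, 38.9, 77.2 and 53.1 at 50 mg/kg. In the second run it was 21.02, 80.3, 33.2 and 25.4 at 5 mg/kg and 5.69, 29.5, 22.3 and 42.1 at 50 mg/kg. The low values were thus those of all 4 mice at 5 mg/kg in the first run and of 1 mouse at 50 mg/kg in each run, mouse 1 (5.11) and mouse 5 (5.69). Irs2 followed the same order, at 12.4, 6.36, 5.39 and 9.80 CPM and then 3.83, 33.99, 37.9 and 20.7 in the first run, and at 15.97, 34.4, 20.8 and 19.5 and then 9.02, 13.7, 12.7 and 16.8 in the second run. Pck1 went from 263, 531, 426 and 1083 to 199.5, 1071, 1843 and 1857 CPM in the first run, and from 619, 1032, 934 and 882 to 413, 437, 574 and 755 in the second. In the second run all but the highest Pck1 value at 50 mg/kg lay below all 4 at 5 mg/kg.

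**Figure D3:**
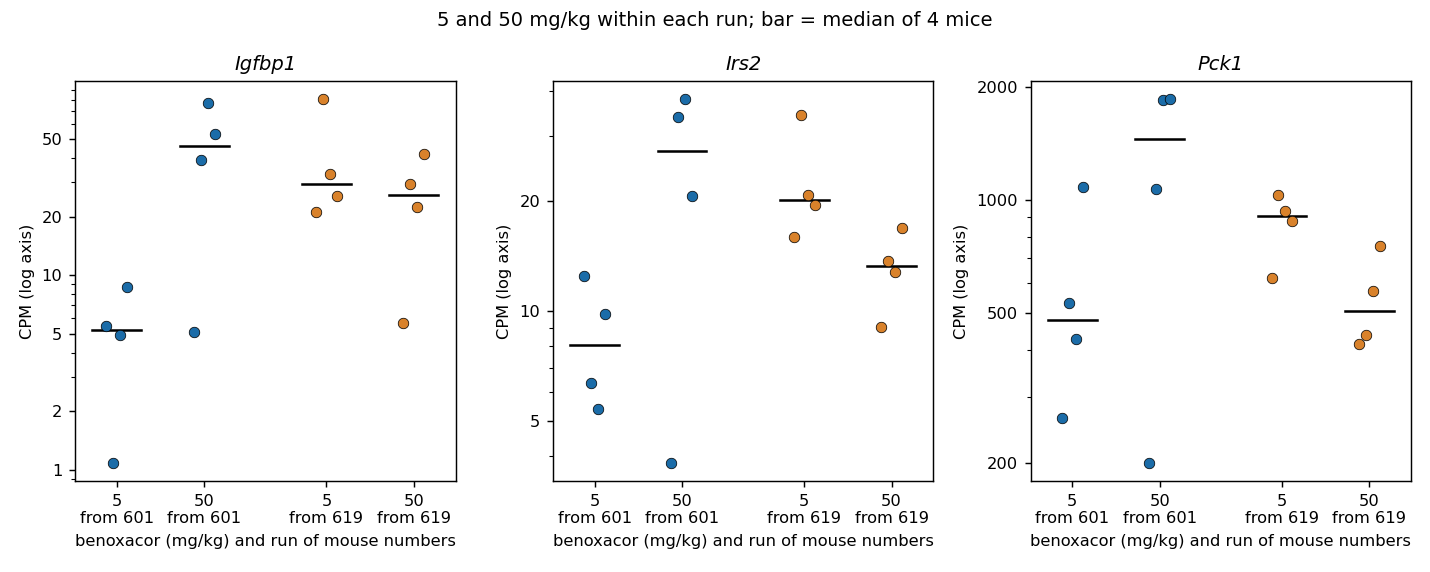
CPM (log axis) of Igfbp1, Irs2 and Pck1 at 5 and 50 mg/kg within the runs of mouse numbers from 601 (blue) and from 619 (orange), 4 mice per group with the median as a bar. In the first run the 50 mg/kg median is the higher one in all 3 genes, in the second run the lower one, and 1 mouse at 50 mg/kg of the first run (Igfbp1 5.11, Irs2 3.83 and Pck1 199.5 CPM) lies with the 5 mg/kg mice.

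The difference between the runs in the 50 against 5 mg/kg contrast was fitted on those 16 mice. It was -3.80 for Igfbp1 on the log2 scale (SE 1.09, interval -6.15 to -1.44, unadjusted p = 0.00397), -2.31 for Irs2 (SE 0.68, interval -3.76 to -0.86, unadjusted p = 0.00394) and -1.81 for Pck1 (SE 0.72, interval -3.35 to -0.28, unadjusted p = 0.0235), all by edgeR. The adjusted p of each was 0.982, so none passed over the 13418 genes tested. At an adjusted p of 0.05, 0 of 10 members and 0.0% of all tested genes were called. At an unadjusted p under 0.05, members called were 3 of 10 beside 4.89% of all tested genes. These 3 went together across the 26 mice (Pearson r of log2 CPM 0.712 to 0.879), so they are not 3 separate results. DESeq2 gave unadjusted p under 0.05 to the same 3, beside 5.04% of all tested genes, and limma-voom to Igfbp1 and Irs2, beside 3.79%. Leaving out 1 mouse at a time, the estimate stayed between -4.21 and -3.22 for Igfbp1, between -2.67 and -2.005 for Irs2 and between -2.33 and -1.55 for Pck1. Irs2 passed once, at an adjusted p of 0.0459 in edgeR without mouse 1 at 50 mg/kg, the low mouse of the first run. The other 7 members had intervals across 0, among them G6pc at 0.032 (-1.58 to 1.64), Tat at -0.71 (-1.72 to 0.30) and Sik1 at -0.46 (-1.62 to 0.71). The clock index was between -2.27 and -1.01 in the 5 mg/kg mice of the first run and between 1.71 and 1.98 in those of the second, and between -1.84 and 0.0953 and between -1.56 and 2.02 at 50 mg/kg. In the second-run mice at 5 mg/kg, steroid cell markers summed to between 4.08 and 3565 CPM and fat cell markers to between 9.64 and 721, against at most 18.4 and 28.8 in the other mice. The fat cell sum was 378 CPM in mouse 6 and 721 in mouse 8, and the steroid cell sum was high in mouse 8 (3565) and not in mouse 6 (4.08). Without these 2 mice, the estimate was -3.22 for Igfbp1, -1.99 for Irs2 and -1.63 for Pck1, the last at an unadjusted p of 0.0711 in edgeR. The part of the clock genes in the contrast was not tested.

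In the first run the 5 mg/kg mice also separated from the controls in those insulin-lowered genes. All 4 had less Igfbp1 (1.08 to 8.74 CPM) than all 4 controls (17.02 to 91.1), and less Irs2 (5.39 to 12.4 against 13.3 to 39.8). These were 2 of 10 members, and 2.18% of all tested genes lay apart in that direction in these mice. Igfbp1 and Irs2 went together across mice (Pearson r of log2 CPM 0.879), so they are not 2 separate results. In the second run the 4 mice at 5 mg/kg lay above the single control in both genes. Fitted in each run alone, the log2 fold change of Igfbp1 at 5 against 0 mg/kg was -3.01 in the first (SE 0.90, adjusted p = 0.430 in edgeR) and 1.15 in the second (SE 1.33, adjusted p = 0.775 in edgeR), where the lone control is assumed to vary like the other groups.

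Across mice, the members fell into groups whose levels went together. Over the 26 mice, 17 of the 45 pairs of members had a Pearson r of log2 CPM with an adjusted p under 0.05 (permutation test, two-sided, with 100000 resamples, Benjamini-Hochberg over the 45 pairs), and all 17 were positive. Spearman's rank correlation also called 17. Since the members were chosen as a set, with earlier results known, these counts describe how the set hangs together in these mice. In the first run alone 14 pairs passed, in the second run alone 6, and without the 2 mice farthest from the median of the first gene 14, with 5 pairs passing in all 4 versions. The largest move of r from leaving out those 2 mice was 0.214.

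The closest pair was Igfbp1 and Irs2, whose r was 0.879 and Spearman correlation 0.910 (adjusted permutation p = 0.000112 and 0.00015, the raw p of r being 1e-05, the smallest that the resamples can give). The r was 0.882 without the 2 farthest mice, 0.866 in the first run and 0.925 in the second run. It was 0.883 on what remained after the additive terms for dose and run, which keeps any dose difference that differs between the runs. Of all 14414 other tested genes, Igfbp1 was the one most like Irs2, and Irs2 ranked 4 for Igfbp1. Pck1 joined them, with r of 0.789 to Irs2 (Spearman 0.790) and 0.712 to Igfbp1 (Spearman 0.724). The r of Pck1 and Irs2 was 0.812 in the first run and 0.773 in the second run, and that of Pck1 and Igfbp1 was 0.757 and 0.692, the last not past the threshold (adjusted permutation p = 0.0989).

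Pck1 was closest to Tat, at an r of 0.818 and a Spearman correlation of 0.837 (adjusted permutation p = 0.000112 and 0.00015), with 0.837 without the 2 farthest mice, 0.840 in the first run and 0.790 in the second run. Pck1 was the gene most like Tat of all tested genes, and 2.68% of genes reached an r of 0.5 to Tat. Sik1 followed Pck1 at 0.576 (Spearman 0.503) and Tat at 0.541 (Spearman 0.511), with 0.753 and 0.710 in the first run and 0.260 and 0.415 in the second run, where neither passed. The difference between the runs was not tested. G6pc was tied more loosely, at 0.529 to Pck1 (Spearman 0.566), 0.510 to Sik1 (Spearman 0.506), 0.494 to Tat (Spearman 0.555) and 0.470 to Irs2 (Spearman 0.502). Its r to Pck1 was 0.539 and 0.555 in the runs, neither past the threshold alone. G6pc and Igfbp1 had an r of 0.380 (Spearman 0.455, adjusted permutation p = 0.120 and 0.0548).

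Fbp1 and Pcx formed a second group, at an r of 0.845 and a Spearman correlation of 0.828 (adjusted permutation p = 0.000112 and 0.00015), with 0.819 without the 2 farthest mice, 0.782 in the first run and 0.922 in the second run. Foxo1 went with both, at 0.729 to Fbp1 (Spearman 0.748) and 0.701 to Pcx (Spearman 0.722). More genes resembled this group than the first: 18.4% of all tested genes had an r of at least 0.5 to Fbp1 and 18.8% to Pcx, but 1.35% to Igfbp1, 1.16% to Irs2, 1.51% to Pck1 and 0.555% to G6pc, and Pcx ranked 158 among the genes most like Fbp1. Over the 26 mice Fbp1 and Pcx showed little relation to Pck1 (r of 0.166 and 0.186, adjusted permutation p = 0.531 and 0.479) or to G6pc (0.0413 and -0.000189, adjusted permutation p = 0.927 and 0.999). Those values of G6pc pooled runs of opposite sign: its r to Fbp1 was 0.614 in the first run (adjusted permutation p = 0.0478) and -0.431 in the second (0.405), and its r to Pcx was 0.535 (0.0885) and -0.440 (0.405). The difference between the runs was not tested. Foxo1 also passed with Tat (0.657, Spearman 0.655) and Pck1 (0.566, Spearman 0.569), so it was not confined to the second group. Many genes resembled Foxo1: 11.5% of all tested genes had an r of at least 0.5 to it. Tat ranked 326 and Pck1 1015 among the genes most like it. The 2 pairs not yet named were Tat with Irs2 (0.578, Spearman 0.603) and with Igfbp1 (0.569, Spearman 0.638).

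Ppargc1a stood outside both groups, with r between -0.354 and 0.025 to the other 9 members and no pair past the threshold. Its lowest r was to Igfbp1 (-0.354, Spearman -0.406, adjusted permutation p = 0.155 and 0.0945).

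**Figure D4:**
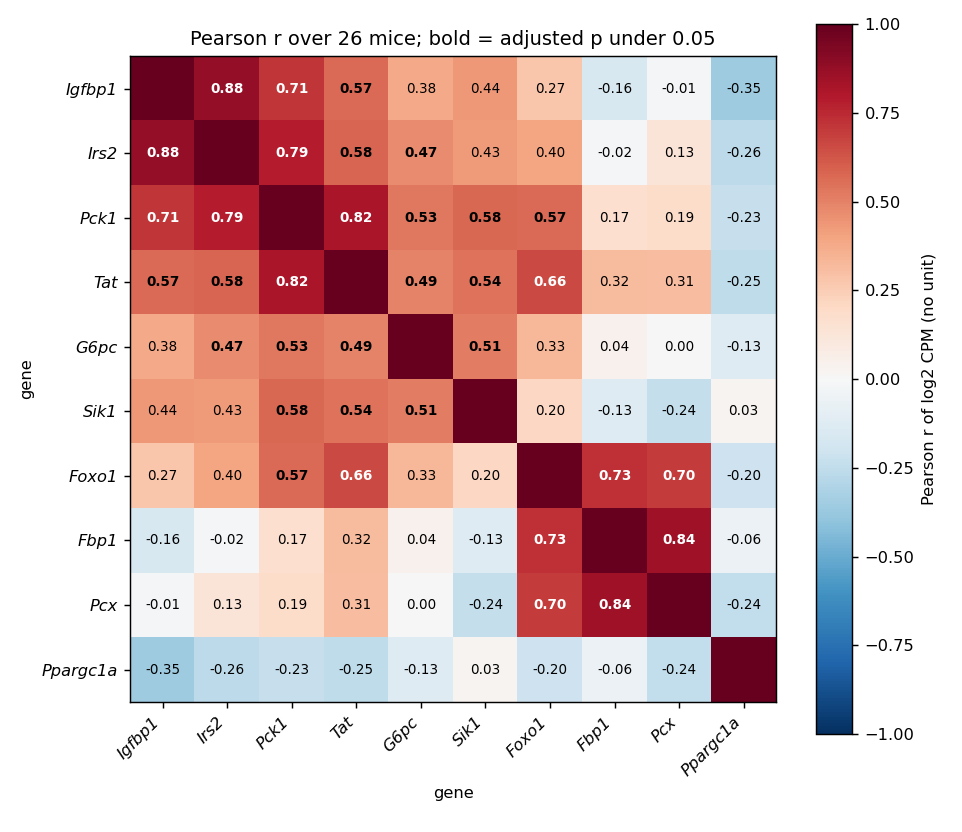
Pearson r of log2 CPM over the 26 mice for each pair of the 10 genes, coloured from -1 (blue) to 1 (red), with values past an adjusted p of 0.05 in bold. A block of positive values joins Igfbp1, Irs2, Pck1, Tat, G6pc and Sik1, a second joins Foxo1, Fbp1 and Pcx at 0.70 to 0.84, and Ppargc1a has no bold value. Foxo1 also has bold values with Tat and Pck1 of the first block.

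**Figure D5:**
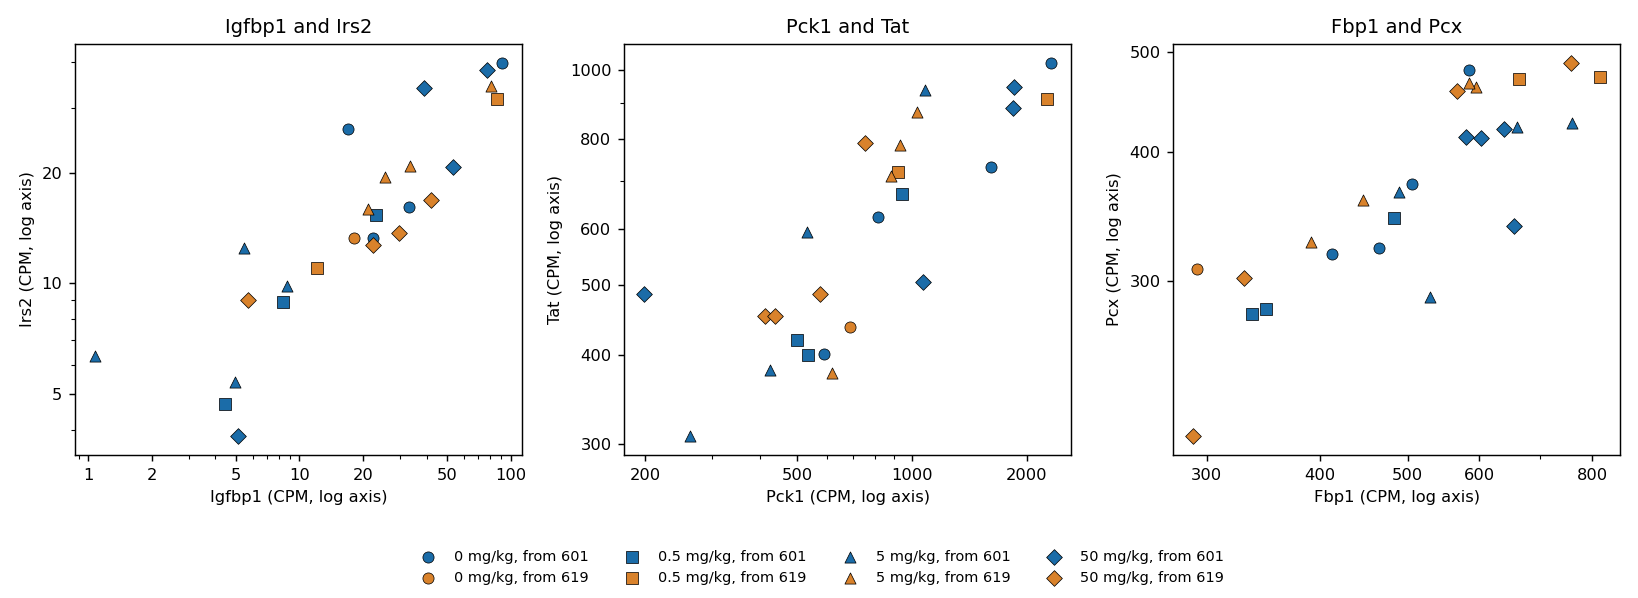
CPM in each of the 26 mice (log axes) for Igfbp1 against Irs2, Pck1 against Tat and Fbp1 against Pcx, with the dose as the marker shape and the run of mouse numbers as the colour. In each panel mice of all doses and of both runs lie along a common rising band.

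The genes whose levels followed each member most closely, of all tested genes over the 26 mice, were as follows. For Pck1 they were Rnd1, a small GTPase, at an r of 0.853 and Sesn2, a stress-induced sestrin, at 0.828. For Igfbp1 they were Efna1, an ephrin ligand (0.897), and Dlc1, a GTPase activating protein (0.895), and for Irs2 they were Igfbp1 and Irf2bp2 (0.864). G6pc was most like Gm15441 (0.750) and Klf11, a zinc finger factor (0.749), and Tat, after Pck1, most like Btg1 (0.745). Fbp1 was most like Gm4737 (0.944) and Cyc1, a subunit of respiratory complex III (0.943), and Pcx most like Tmbim6 (0.924) and Pgm2, a phosphoglucomutase (0.921). For Foxo1 they were Lpcat3 (0.833) and Nadk, the NAD kinase (0.823), for Ppargc1a Tspan12 (0.780) and Hnmt (0.775), and for Sik1 Gm43314 (0.756) and Elf5 (0.745). These values are descriptions over 26 libraries, chosen as the highest among 14414, and carry no test.

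The surrounding pathways were read from 9 lists of further genes, drawn up with earlier results of these data known. Zbtb16 was already known as the 1 gene called at 50 mg/kg, so its place in a list is no result about that list. At 50 against 0 mg/kg 0 genes of 8 lists passed an adjusted p of 0.05 in edgeR, and the list of glucocorticoid targets had 1 of its 13 tested genes lower, Zbtb16, a zinc finger repressor that fell by 1.72 on the log2 scale (SE 0.25, adjusted p = 0.00333), from 28.5 ± 15.6 CPM (n = 5) to 10.6 ± 5.11 (n = 8). Its adjusted p in edgeR was 0.0702 without the single second-run control, at a log2 fold change of -1.64, and 0.890 without a term for run, at -1.42. At an unadjusted p under 0.05 the lists had 0 of 17 other gluconeogenic and glucose output enzymes, 2 of 20 glucagon and cAMP genes, 1 of 22 insulin and FOXO genes, 0 of 18 genes of amino acid breakdown, 2 of 13 glycogen genes, 0 of 20 genes of fed-state glycolysis and lipogenesis, 1 of 18 genes of fasting lipid use, 3 of 13 glucocorticoid targets and 2 of 22 transcription factors. The share of all tested genes at that unadjusted p was 5.11% in edgeR. List medians of the log2 fold change lay between -0.17 and 0.12, beside 0.0054 over all tested genes. Slc37a4, the transporter that feeds glucose 6-phosphate to G6pc, had a log2 fold change of 0.35 (SE 0.21). Crebbp, the CREB binding protein, was at -0.30 (SE 0.10) and Prkacb, a catalytic subunit of protein kinase A, at 0.23 (SE 0.11). Gbe1 and Ugp2, enzymes of glycogen synthesis, were at 0.38 (SE 0.15) and 0.39 (SE 0.18), Lpin1, a lipin of triglyceride synthesis, at -0.80 (SE 0.25), and Ppargc1b, a relative of Ppargc1a, at -0.63 (SE 0.26).

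Between the runs, 1 of 13 glucocorticoid targets was called, Zbtb16, which rose by 1.01 on the log2 scale in the second run (SE 0.18, adjusted p = 0.0186 in edgeR), and 0 genes of the other 8 lists. Here too the list was drawn up with earlier results known, so the count is no result about glucocorticoid targets. Zbtb16 did not pass in limma-voom (adjusted p = 0.0511), nor in edgeR without mouse 4 at 5 mg/kg (0.0508), without mouse 4 at 0.5 mg/kg (0.0548) or without a dose term (0.443). Beside 7.98% of all tested genes, an unadjusted p under 0.05 in edgeR was reached by 7 of 20 genes of fed-state glycolysis and lipogenesis, whose median was -0.19, and by 5 of 18 genes of amino acid breakdown, with a median of 0.13. Among the 7 fed-state genes counted, Insig2 was positive and so went against the median of its list. The other lists had 3 of 18 genes of fasting lipid use, 3 of 13 glucocorticoid targets, 3 of 20 glucagon and cAMP genes, 2 of 17 other gluconeogenic enzymes, 2 of 22 insulin and FOXO genes, 2 of 22 transcription factors and 0 of 13 glycogen genes. Elovl6, a fatty acid elongase, was at -0.92 (SE 0.19) with 116 ± 41.6 CPM in the first run and 61.97 ± 19.98 in the second, and Insig2, a brake on sterol-driven lipogenesis, at 0.76 (SE 0.16) with 148 ± 50.6 and 237 ± 68.1 CPM. Both had an adjusted p of 0.0506 in edgeR. They passed in DESeq2, which called 108 genes between the runs against 13 in edgeR, and did not pass in limma-voom. Of 18 genes of fasting lipid use 17 had a positive log2 fold change in the second run, beside 54.0% of all tested genes. Their median was 0.19 beside 0.015 over all tested genes. The 9 tested hepatocyte markers were all positive as well, with a median of 0.17, so this direction was not particular to fasting lipid use. Among the genes of fasting lipid use, Plin2, a lipid droplet coat protein, was at 0.42 (SE 0.18) and Fgf21, a fasting hormone, at 0.87 (SE 0.40). The clock genes above differed between the same runs, and their part in these values was not tested.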

How the data were processed

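Livers of 26 mice were sequenced as RNA libraries. Reads were counted per gene before deposit; bcl2fastq, featureCounts and mm10 are named, without versions, in the submitters' processing notes, and the strand setting and annotation are not given in the sources used here. The deposited values are whole-number counts per gene, and the 26 single-sample files equal the combined table. Of its IDs, 54495 are in GENCODE M21, which gave symbols' positions and exon lengths.

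From the counts, genes with low values were removed with edgeR 4.0.16 (filterByExpr by dose; R 4.3.3), leaving 14415 genes with 99.7% of reads, and TMM scaling was applied. edgeR's quasi-likelihood test used terms for dose and run and Benjamini-Hochberg adjustment at 0.05. The run difference in the 50 against 5 mg/kg contrast was fitted on 16 mice and 13418 genes. Log2 CPM used a prior count of 2. DESeq2 1.42.0, limma-voom (limma 3.58.1), no filter, other terms and subsets of mice were alternatives. Fits were tested on simulated data. No 2 libraries were alike within sampling noise (chi-square per degree of freedom 9.26 to 174 over 325 pairs).

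The members and lists were chosen with earlier results of these data known. Genes named with values are the 10 members, up to 2 genes of smallest p per list at 50 against 0 mg/kg and between the runs, Zbtb16, and for each member the 2 genes of highest Pearson r; Arntl, Npas2 and the genes of libraries that stood apart were named besides. The result of 1 gene that this rule names is not reported here.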

Additional observations from a re-analysis of the deposited data

Results flagged for a closer look

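Of 40 groups of one gene at one dose, 4 held a mouse whose gap to the next, divided by the range of the group, passed Dixon's 95% critical value. For normally distributed values chance passes about 1 in 20. The ratio was taken on CPM and not on log2 CPM, and each flagged mouse was the highest of its group. Whether the rate of 1 in 20 holds for CPM was not tested, and the groups share mice and genes that vary together. Pck1 at 0.5 mg/kg was 2264 CPM in mouse 4, with the next mouse at 944. The same mouse stood apart in Igfbp1, at 86.4 CPM against 23.0 for the next. Igfbp1 at 0 mg/kg was 91.1 CPM in mouse 2, with the next at 33.2, and at 5 mg/kg it was 80.3 CPM in mouse 6, with the next at 33.2.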

How the results depend on the processing

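No member was called under any alternative in any dose comparison or between the runs. In the 50 against 5 mg/kg contrast between the runs, leaving out 1 mouse at a time called 0 to 1 members, the call being Irs2 without mouse 1 at 50 mg/kg. Directions were less steady: the sign differed in some setting for 8 of 10 members at the highest dose, 8 at the middle dose, 9 at the lowest dose, 4 between the runs and 2 in the contrast between them. The cause was not tested. No paired analysis was possible because the labels give no numbers that pair mice across doses.

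The number of genes called at 50 against 0 mg/kg, 1 in the main fit, was 2 with the clock index as a term, 3 in DESeq2, 0 with no run term, 4 in the first run alone and 0 in the second run alone, and 0 to 1 leaving out 1 mouse, with 0 without mouse 5 at 0 mg/kg. For 5 against 0 mg/kg, in place of 0, it was 4 in DESeq2 and 0 to 3 leaving out 1 mouse, with 3 without mouse 4 at 0 mg/kg. For 0.5 against 0 mg/kg, in place of 0, it was 3 in DESeq2 and 33 in the first run alone. For any difference among the doses, in place of 1, it was 0 with the clock index, 11 in DESeq2, 0 in limma-voom, 0 with no filter, 0 with no run term, 9 in the first run alone, 0 in the second run alone and 0 to 4 leaving out 1 mouse. Between the runs, in place of 13, it was 108 in DESeq2, 1 in limma-voom, 3 with no dose term and 2 to 60 leaving out 1 mouse, the lowest without mouse 4 at 5 mg/kg and the highest without mouse 4 at 0 mg/kg. In the contrast between the runs it was 0 to 2 leaving out 1 mouse. Pairs of members past the threshold numbered 6 in the second run alone, which has fewer mice.

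Log2 fold changes that turned sign, none called, were as follows. The second run alone, with its lone control assumed to vary like the other groups, gave 1.24 for Pck1, 0.18 for G6pc, -0.62 for Ppargc1a, 0.92 for Tat, 1.47 for Igfbp1, 0.71 for Irs2 and 0.84 for Foxo1 at 0.5 mg/kg. At 5 mg/kg it gave 0.33 for Pck1, -0.96 for Ppargc1a, 0.65 for Tat, 1.15 for Igfbp1, 0.77 for Irs2 and 0.497 for Foxo1, and at 50 mg/kg -0.75 for Ppargc1a, 0.33 for Tat, 0.48 for Igfbp1, 0.33 for Foxo1 and 0.43 for Sik1. The first run alone gave -0.36 for Fbp1 and -0.33 for Pcx at 0.5 mg/kg, -0.00061 for Pcx at 5 mg/kg, and 0.019 for Tat, 0.091 for Igfbp1, 0.014 for Irs2 and 0.013 for Angptl4 at 50 mg/kg. Without the mice of high Saa1 Pck1 was at 0.18, Tat at 0.057 and Foxo1 at 0.16 at 0.5 mg/kg, Foxo1 at 0.025 at 5 mg/kg, and G6pc at -0.14 and Tat at -0.00015 between the runs. limma-voom gave -0.0054 for Pcx at 0.5 mg/kg, 0.0052 for Foxo1 at 5 mg/kg, 0.016 for Sik1 at 50 mg/kg, 0.11 for Pck1 between the runs and -0.25 for G6pc in the contrast between them. DESeq2 gave -0.0029 for Pcx at 0.5 mg/kg, the unfiltered table -0.00026 for Pcx at 0.5 mg/kg and 0.00029 for Foxo1 at 5 mg/kg, no dose term -0.024 for G6pc between the runs, and leaving out mice 6 and 8 at 5 mg/kg -0.044 for Tat between the runs.

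Leaving out 1 mouse at a time, the values that crossed 0 ranged at 50 mg/kg from -0.36 to 0.17 for G6pc, -0.054 to 0.18 for Pcx, -0.034 to 0.49 for Ppargc1a, -0.22 to 0.17 for Tat, -0.80 to 0.44 for Igfbp1, -0.62 to 0.048 for Irs2, -0.20 to 0.035 for Foxo1 and -0.45 to 0.33 for Sik1. The ranges at 5 mg/kg were -0.49 to 0.051 for G6pc, -0.012 to 0.21 for Pcx, -0.062 to 0.47 for Ppargc1a, -0.24 to 0.15 for Tat and -0.15 to 0.076 for Foxo1. The ranges at 0.5 mg/kg were -0.67 to 0.15 for Pck1, -0.11 to 0.13 for Pcx, -0.25 to 0.16 for Tat and -0.21 to 0.041 for Foxo1. Between the runs they ranged from -0.26 to 0.11 for Pck1, -0.084 to 0.21 for G6pc, -0.027 to 0.15 for Tat and -0.11 to 0.049 for Foxo1, and in the contrast between the runs from -0.34 to 0.37 for G6pc and -0.40 to 0.070 for Fbp1.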
